A study of Mus musculus with 25 samples.

Results

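The Tcf/Lef factors are the DNA-binding partners of beta-catenin, and Axin2 is a transcriptional target that feeds back on the same pathway. Their 5 genes, Tcf7, Lef1, Tcf7l1, Tcf7l2 and Axin2, were taken by symbol from the 37406 genes of the expression table, and each symbol had 1 row. The samples were compartments of the secondary palate, laser capture microdissected from wild type embryos of the outbred CD1 mouse strain at stage E14.5. Of the 25 libraries, 13 were anterior and 12 posterior, and each region was divided into medial, lateral, oral and nasal compartments. There were 3 libraries per compartment and 4 for anterior nasal, all without treatment. Each was made from amplified total RNA of cut tissue, so fewer cells of a type and less RNA per cell cannot be told apart. Levels are RPKM, reads per kilobase of transcript scaled to library depth, so that genes can be compared per length.

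In the absence of a Wnt signal, beta-catenin is held in a destruction complex, in which Axin proteins are the scaffold, and is marked for degradation. When Wnt ligands engage Frizzled and Lrp receptors, beta-catenin accumulates, enters the nucleus and binds Tcf/Lef proteins at their sites in DNA. The same proteins recruit Groucho/Tle corepressors when beta-catenin is absent, and among the family Tcf7l1 is best known as a repressor, while Lef1 and Tcf7 are themselves induced by the pathway in many tissues. Wnt signals take part in growth and fusion of the palatal shelves and in bone formation, and Axin2 is the usual reporter of the canonical branch.

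The 4 Tcf/Lef genes encode a closely related DNA-binding domain, the HMG box, followed by a basic tail. The same 60 coding bases at the end of this domain are shown because reads from such related stretches could in principle be assigned to the wrong family member. They are given 5′ to 3′ on the coding strand, from the mouse GRCm38 reference and its transcripts, with each base that differs from Tcf7l2 in capitals.
Tcf7: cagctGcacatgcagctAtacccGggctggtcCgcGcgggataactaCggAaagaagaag
Lef1: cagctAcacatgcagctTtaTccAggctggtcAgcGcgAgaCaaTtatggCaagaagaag
Tcf7l1: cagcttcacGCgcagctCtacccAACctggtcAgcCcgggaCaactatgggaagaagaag
Tcf7l2: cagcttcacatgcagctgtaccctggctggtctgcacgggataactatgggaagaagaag

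The stretch spans the junction of exons 9 and 10 of Tcf7 (transcript Tcf7-202, minus strand, chr11:52256295-52256787 in GRCm38) and of exons 9 and 10 of Lef1 (Lef1-201, plus strand, chr3:131200355-131204267). In Tcf7l1 it spans exons 11 and 12 (Tcf7l1-202, minus strand, chr6:72630020-72631059), and in Tcf7l2 exons 10 and 11 (Tcf7l2-213, plus strand, chr19:55919571-55923907). Tcf7 differed from Tcf7l2 at 7 of the 60 bases, Tcf7l1 at 9 and Lef1 at 10. Over the whole transcripts, the longest run of bases shared exactly by any pair was 14 to 23 bases, below the read length of 50 bases. A read of that length from one of the compared transcripts therefore differs from the other 3 by at least 1 base. Only 1 transcript per gene was compared, and whether reads with mismatches were assigned to the wrong gene was not tested. The files place the genes, in the build named by the labels, mm9, at chr11:52065797-52096516 (Tcf7, gene ID 21414), chr3:130813389-130926249 (Lef1, 16842), chr6:72576374-72738950 (Tcf7l1, 21415), chr19:55816300-56008145 (Tcf7l2, 21416) and chr11:108781663-108812095 (Axin2, 12006). The older names Tcf3 for Tcf7l1 and Tcf4 for Tcf7l2 also belong to unrelated genes, which were not taken. In 10 annotated RefSeq start-site windows of the 5 genes, the 250 bases upstream held neither CTTTGAT nor CTTTGAA on either strand, against 7.48% of 32851 such windows that hold at least 1 of them. Some of these windows overlap, and at that share a count of 0 among 10 shows no lack of the motifs. The more upstream Tcf7 window reads as an open frame from an ATG to its end. Sequence upstream of a longer Tcf7 transcript may therefore not have been searched.

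The values imply 1.64 to 6.56 M reads per library (median 3.27 M). These totals are estimates that rest on assumed transcript lengths, count only reads that entered the RPKM values, and are below the sequencing depth stated for the study. At the median depth a single read counted over 2000 bases gives 0.153 RPKM. They came from 8 sequencing runs, which are known from the alignment names. In these names 6 libraries, of the runs with the deepest libraries (4.07 to 6.56 M reads against 1.64 to 3.86 M), carry ERK2_WT (2 libraries) or Tgfbr2_WT (4 libraries), although the labels give all samples as CD1 wild type. Results that include them are also given without them where that changes a call or a direction. The 6 palate mesenchyme markers, among them Prrx1, Twist1 and Osr2, summed to 514 to 1110 RPKM in every library. Epithelial keratins and other epithelial markers summed to 23.1 to 153 RPKM, endothelial markers to 55.2 to 191 and myeloid markers to 29.9 to 156. Cd3d and Dkk1 were highest in anterior nasal replicate 1 (81.9 and 36.0 RPKM) and anterior oral replicate 1 (63.5 and 25.6 RPKM), which share a run. In the alignment names anterior nasal replicate 1 carries Zymo and anterior nasal replicate 2, of the same run, carries SDS. What these name parts have to do with the levels was not tested.

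Among the 4 DNA-binding factors, Tcf7l1 and Tcf7l2 had the highest means in every compartment except posterior nasal, where Tcf7 was above Tcf7l2, and the narrowest ranges across compartments. Tcf7l1 had compartment means from 30.3 RPKM in posterior medial to 51.7 in posterior oral, a 1.71-fold range, and Tcf7l2 from 22.0 in posterior nasal to 34.0 in anterior medial, a 1.55-fold range. Tcf7 had the widest range of the 5 genes, 5.79-fold, from 7.77 ± 2.20 RPKM in anterior lateral (SD, n = 3) to 45.0 ± 5.41 in posterior nasal (SD, n = 3). Lef1 was the least abundant, with means of 0.717 to 2.71 RPKM. Ordered by its compartment means, Tcf7 went from posterior nasal through anterior medial (21.8 RPKM), anterior nasal (18.4), anterior oral (13.5), posterior medial (12.2), posterior lateral (9.36) and posterior oral (8.69) to anterior lateral. The libraries of neighbouring compartments in this order overlapped at every step except the first, from posterior nasal to anterior medial. For the other 4 genes all neighbours in the order overlapped.

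**Figure D1:**
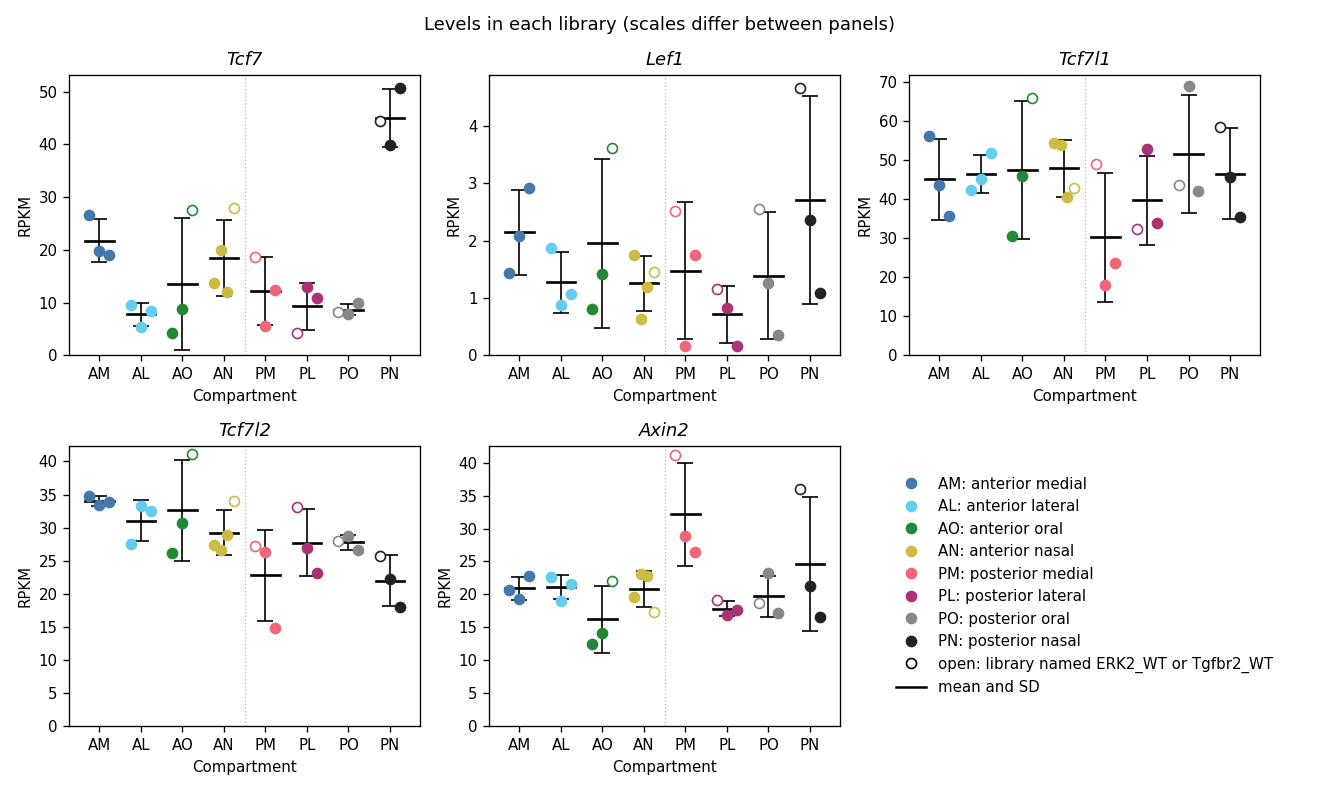
Level in RPKM (vertical axis, starting at 0, scale set per gene) of the 5 genes in each of 25 libraries, by compartment, with the mean (long line) and SD (bars). Open circles are the 6 libraries named ERK2_WT or Tgfbr2_WT. The 3 posterior nasal libraries lie at 39.9 to 50.7 RPKM for Tcf7, above every other library, whereas Tcf7l1 and Tcf7l2 overlap between most compartments.

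Tcf7, a factor first described in T lymphocytes, differed most along the oral-nasal axis of the posterior palate. The paper lists it among the genes higher in posterior nasal than posterior oral, so this difference was already reported from these libraries. Tcf7 was at 44.4, 39.9 and 50.7 RPKM in the posterior nasal libraries and at 8.28, 7.83 and 9.94 RPKM in the posterior oral ones. The lowest nasal library stood at 39.9 RPKM and the highest oral one at 9.94, and the groups did not overlap, as for 11.8% of genes. On the log2(RPKM + 0.1) scale Tcf7 was lower in oral by 2.36 (SE 0.21, limma adjusted p = 0.00327), or 5.14-fold, and ranked 9 by p among 10587 genes tested. It was 1 of 5 members called (4 of the 5 passed the minimum of 5 RPKM in 3 libraries), where 1.25% of all genes were called and 0.661% were called lower in oral. Tcf7l1, Tcf7l2, Lef1 and Axin2 were not called. The difference was also present within sequencing runs. In 1 run, posterior nasal replicate 1 had 5.36 times the Tcf7 level of posterior oral replicate 1 (44.4 against 8.28 RPKM), and in another, posterior nasal replicate 2 had 4.49 times the mean of the oral libraries of that run (39.9 against 8.89 RPKM). With sequencing run as a block, the log2 difference was -2.27 (adjusted p = 0.0640), and without the libraries named Tgfbr2_WT, which leaves 2 against 2, it was -2.34 (adjusted p = 0.116).

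The osteoblast list moved in the same comparison. Its 13 genes summed to 792 to 1120 RPKM in the posterior nasal libraries and to 363 to 451 in the posterior oral ones. Of 10 of its genes that could be tested, 8 were called, all lower in oral, where 1.25% of all genes were called and 0.661% lower in oral. The minimum of 5 RPKM in 3 libraries could be met by the nasal libraries alone. Dlx3 (0.350 RPKM on average in oral and 14.9 in nasal) passed only through them, so this count favours genes high in nasal. The median log2 difference of the list was -2.71 against -0.01 over all genes. The list was chosen with results of these data known. The paper itself names Ibsp, Panx3, Dlx3, Smpd3, Sp7, Dlx5 and Runx2 as higher in posterior nasal. The shift of the list was therefore largely known beforehand. Sp7, a transcription factor required for osteoblasts, was at 82.8 ± 26.0 RPKM in posterior nasal and 9.57 ± 2.15 in posterior oral (SD, n = 3 each), and Ibsp, a bone matrix sialoprotein, at 168 ± 42.2 and 5.47 ± 8.13. Bglap and Spp1 (its row with the higher mean), markers of mature osteoblasts, had group means of 0.274 to 1.04 RPKM in both. The part of this cell type in the Tcf7 result was not tested. In the 22 libraries outside posterior nasal, Tcf7 and the summed osteoblast list had a Pearson r of 0.21 and a Spearman rho of 0.18 on the log2 scale, and the r was 0.05 without the 2 libraries farthest from the median list sum. The list sum of these libraries spanned only 264 to 487 RPKM, and a narrow range limits r. Col1a1 alone averaged 150 RPKM in the anterior libraries. These libraries share runs and compartments, and the values are a description that tests no cause.

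**Figure D2:**
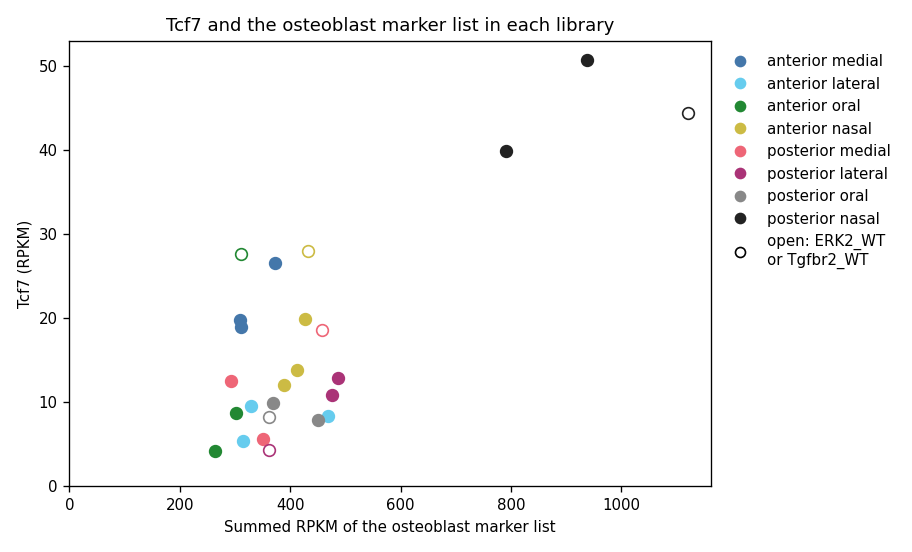
Tcf7 level in RPKM (vertical axis) against the summed RPKM of the 13 osteoblast markers (horizontal axis) in each of 25 libraries, coloured by compartment, with the 6 libraries named ERK2_WT or Tgfbr2_WT open. The 3 posterior nasal libraries stand apart on both axes (39.9 to 50.7 and 792 to 1120 RPKM), and the other 22 lie at 4.18 to 28.0 RPKM on the vertical and 264 to 487 on the horizontal axis.

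Since Tcf7 marks T cells, the T cell list was examined in the same libraries. Its 7 genes summed to 6.10 to 8.12 RPKM in posterior nasal and 7.89 to 9.84 in posterior oral. The posterior nasal mean, 7.02 RPKM, was the lowest of the 8 compartments, and Cd3e, a subunit of the T cell receptor complex, was listed at 0 in all 3 posterior nasal libraries, as in all 3 of anterior medial and of anterior lateral and in 2 of 3 of posterior oral and of posterior lateral. Of the T cell genes only Cd3d was tested there, and it was not called. In the anterior, the list reached 90.0 RPKM in anterior nasal replicate 1 and 71.2 in anterior oral replicate 1, which share a run. Most of each sum was Cd3d alone (81.9 and 63.5 RPKM), with Cd3e at 1.47 and 0.221 RPKM. Tcf7 was 13.8 and 4.18 RPKM in these libraries, the second lowest of 4 and the lowest of 3 in their compartments. Cartilage markers summed to 46.1 to 81.5 RPKM in posterior nasal and 26.8 to 51.7 in posterior oral, where 1 of 3 tested was called, lower in oral. Endothelial markers summed to 55.2 to 85.9 and 126 to 191, where 1 of 6 was called, higher in oral. Epithelial markers summed to 37.6 to 70.7 RPKM in posterior nasal and 25.8 to 46.6 in posterior oral, where 1 of 4 tested was called, lower in oral. The part of these cell types in the Tcf7 result was not tested.

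In the anterior palate the oral and nasal libraries overlapped for all 5 genes. Tcf7 was at 4.18, 8.77 and 27.7 RPKM in anterior oral and at 13.8, 19.9, 12.01 and 28.0 in anterior nasal. The highest value of each group came from the same run, that of the Tgfbr2_WT libraries. The log2 difference, oral minus nasal, was -0.79 (SE 0.60, adjusted p = 1.00). Within runs the nasal to oral ratio was 4.03 (16.9 against 4.18 RPKM), 1.37 (12.01 against 8.77) and 1.01 (28.0 against 27.7). None of the 5 genes was called, limma called 0 of 10685 genes, and 2.98% had an unadjusted p under 0.05, none of the 5 among them. The oral-nasal difference of Tcf7 was larger in the posterior by 1.58 on the log2 scale (SE 0.73), which did not pass (adjusted p = 1.00, where 0.035% of 11443 genes were called). The posterior difference is therefore not shown to differ from the anterior one.

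Along the medial-lateral axis, Tcf7 was the member called in the anterior palate. It was at 26.5, 19.8 and 19.0 RPKM in the anterior medial libraries and at 9.60, 5.33 and 8.38 in the anterior lateral ones. Every medial value was above every lateral value, by a 2.83-fold difference on the log2(RPKM + 0.1) scale. The log2 difference, lateral minus medial, was -1.50 (SE 0.24, adjusted p = 0.0205). It was 1 of 5 members called, where 2.51% of 10428 genes were called, 1.08% lower in lateral, and 21.3% did not overlap between the groups. The call was lost without anterior medial replicate 1 (adjusted p = 0.0617) or replicate 2 (0.0678), without anterior lateral replicate 3 (0.0793), with no filter on low values (0.0964) in a fit of all 25 libraries (0.695) and in that fit with a term for sequencing run (1.00), while the difference stayed between -1.67 and -1.25. Tcf7l2 also did not overlap between the groups, at 33.35 to 34.8 RPKM in medial and 27.5 to 33.26 in lateral, but was not called (log2 difference -0.13, SE 0.12, adjusted p = 0.683). The medial libraries were all sequenced in 1 run, in which no lateral library was, so that run and compartment cannot be told apart. The osteoblast list summed to 309 to 372 RPKM in anterior medial and 315 to 468 in anterior lateral, where the highest sum was that of replicate 3, with Ibsp at 93.9 RPKM. Of 4 osteoblast genes tested 1 was called, Runx2, a transcription factor of the osteoblast lineage, which was lower in lateral (14.6 against 43.3 RPKM on average, log2 difference -1.54, SE 0.25, adjusted p = 0.0248). Cartilage markers summed to 18.9 to 35.1 RPKM in medial and 9.03 to 11.4 in lateral, and 1 of 2 tested was called, lower in lateral. Epithelial markers summed to 74.2 to 129 and 49.7 to 95.4 RPKM, and of 6 tested Krt14 was called lower in lateral (8.42 against 37.6 RPKM) and Krt8 higher (7.75 against 2.89 RPKM). The part of these cell types in the result was not tested.

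In the posterior palate Tcf7 overlapped between medial (18.6, 5.66 and 12.5 RPKM) and lateral (4.35, 12.9 and 10.8 RPKM). The highest medial and the lowest lateral value came from the libraries named ERK2_WT. The log2 difference was -0.37 (SE 0.60, adjusted p = 0.957) and turned to 0.48 without those libraries (adjusted p = 0.744). The lateral minus medial difference of Tcf7 was 1.13 (SE 0.69) higher in the posterior than in the anterior palate on the log2 scale (adjusted p = 0.964, where 0.00902% of 11090 genes were called).

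Between the anterior and posterior palate as a whole, Tcf7 levels ran from 4.18 to 28.0 RPKM (median 13.8) and from 4.35 to 50.7 (median 11.7), with a log2 difference of 0.05 (SE 0.39, adjusted p = 0.967). This fit had no term for compartment, so its SE includes the spread between compartments. The compartments behind the difference of 0.05 went in different directions. Medial levels were lower in the posterior, 12.2 against 21.8 RPKM on average, and nasal levels were 2.44-fold higher in the posterior, 45.0 against 18.4, both without overlap, as for 11.9% of genes between the medial and 20.3% between the nasal compartments. Lateral and oral levels overlapped between the regions.

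The composition of the Tcf/Lef transcripts changed with these differences. Tcf7 made up 39.2% ± 7.93 of the summed RPKM of the 4 factors in posterior nasal and 9.98% ± 2.64 in posterior oral (SD, n = 3 each), with libraries of 33.3% to 48.2% and 7.32% to 12.6%. In anterior medial and anterior lateral the share was 21.0% ± 1.15 and 9.01% ± 2.77 (SD, n = 3 each). Tcf7l2 took 18.9% ± 1.59 in posterior nasal and 31.5% ± 3.98 in posterior oral, again without overlap (17.1% to 20.2% against 26.9% to 33.9%). Tcf7l1 held the largest mean share in all 8 compartments, from 39.7% in posterior nasal, where Tcf7 was close to it, to 57.0% in posterior oral. In posterior nasal replicate 3 the level of Tcf7 was above that of Tcf7l1, with a ratio of 1.43, the only library of 25 in which it was. The summed level of the 4 genes ran from 66.8 RPKM in posterior medial to 116 in posterior nasal. Shares from the same sum are not independent of each other.

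**Figure D3:**
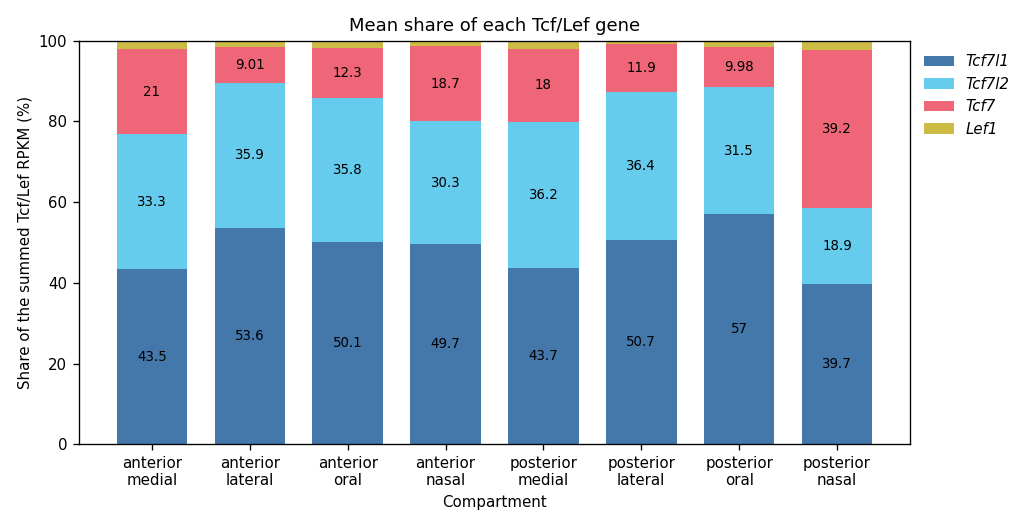
Mean share of each Tcf/Lef gene (vertical axis, percent of their summed RPKM) in each of the 8 compartments (horizontal axis). Tcf7 holds 39.2% in posterior nasal, against 9.01% to 21.0% elsewhere, and Tcf7l1 holds the largest share in every compartment.

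Tcf7l1, the member best known as a repressor, did not pass in any comparison. It was at 58.6, 45.8 and 35.4 RPKM in posterior nasal and at 43.8, 69.2 and 42.1 in posterior oral, and the groups overlapped. Its log2 differences were 0.06 (SE 0.18) for anterior lateral minus medial, 0.49 (0.45) for posterior lateral minus medial, -0.07 (0.31) for anterior oral minus nasal, 0.14 (0.29) for posterior oral minus nasal and -0.22 (0.17) for posterior minus anterior. The largest of these was in the posterior, where medial had the lowest mean of the 8 compartments, from 49.1, 18.0 and 23.7 RPKM. A p that misses the threshold does not show that the levels were equal.

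Tcf7l2 was lower in the posterior than in the anterior palate, short of the threshold. It ran from 26.1 to 41.1 RPKM (median 32.4) in the 13 anterior libraries and from 14.9 to 33.1 RPKM (median 26.4) in the 12 posterior ones, with overlap. The log2 difference was -0.35 (SE 0.11, adjusted p = 0.0847, 1.27-fold), where 3.32% of 8609 genes were called and 15.3% had an unadjusted p under 0.05. This makes 0 of 5 members called and 1 of 5 with an unadjusted p under 0.05. The adjusted p fell to 0.0325 with median centring, to 0.0215 with quantile normalization, to 0.0393 with sequencing run as a block and to 0.0416 without posterior lateral replicate 1. By compartment, medial (34.0 against 22.8 RPKM on average) and nasal (29.2 against 22.0) did not overlap between the regions, as for 11.9% and 20.3% of genes, and the others did. Within the posterior palate Tcf7l2 was at 25.7, 22.3 and 18.0 RPKM in nasal and 28.0, 28.8 and 26.5 in oral, without overlap, as for 11.8% of genes, with a log2 difference of 0.35 (SE 0.21, adjusted p = 0.948).

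Lef1, the last of the factors, was below the expression minimum of the tests in every comparison and was added to each. In posterior nasal it was at 4.67, 2.37 and 1.10 RPKM and in posterior oral at 2.56, 1.26 and 0.356. The log2 difference there was -1.03 (SE 0.68, adjusted p = 0.971), and in anterior lateral against medial it was -0.72 (SE 0.32, adjusted p = 0.350). Its level rests on few reads, about 1.37 in posterior medial replicate 2 to 98.7 at the length of transcript Lef1-201, with a median of 16.4. In the 6 deeper libraries of the ERK2_WT and Tgfbr2_WT names the median was 2.54 RPKM (1.16 to 4.67), against 1.20 RPKM (0.167 to 2.92) in the other 19. Depth and run moved together here and their part was not tested.

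**Figure D4:**
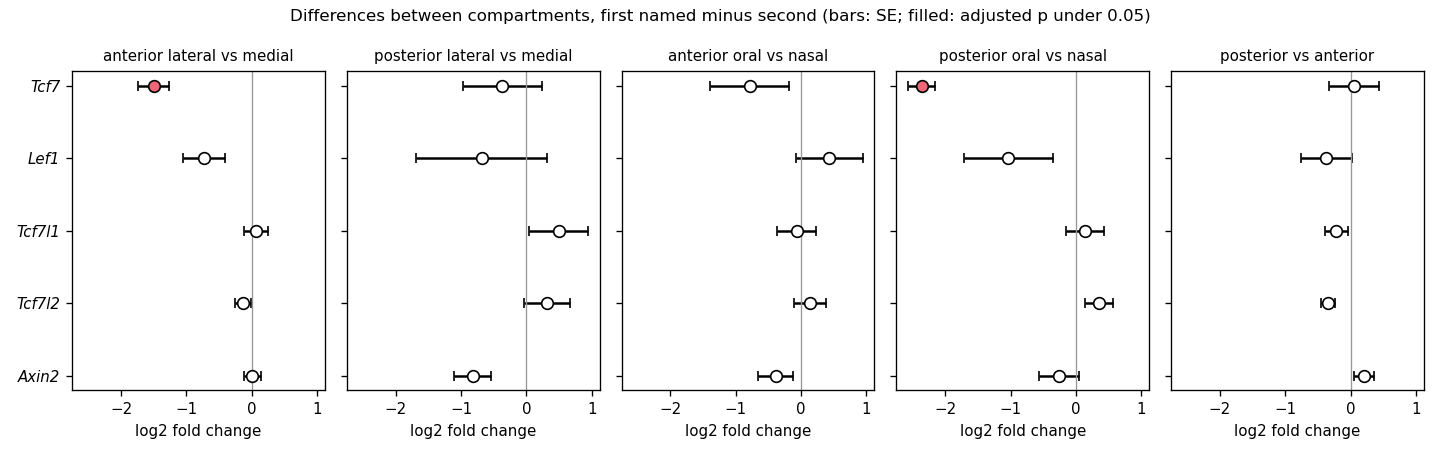
Log2 fold change on the log2(RPKM + 0.1) scale (horizontal axis) with its SE for each of the 5 genes (rows) in 5 comparisons (panels), first named minus second. Filled points passed an adjusted p under 0.05, which Tcf7 did in anterior lateral against medial (-1.50) and posterior oral against nasal (-2.36).

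Axin2, the feedback inhibitor, was not called in any comparison. It was highest in posterior medial, with 41.1, 28.9 and 26.5 RPKM, and lay at 19.1, 16.8 and 17.6 RPKM in posterior lateral. Every medial value was above every lateral one, as for 6.62% of genes. The difference was 1.77-fold (log2 difference -0.82, SE 0.28), but it did not pass (adjusted p = 0.957), and limma called 0 of 10325 genes in this comparison. Axin2 was the only 1 of the 5 with an unadjusted p under 0.05, as were 1.54% of all genes. In the anterior palate it overlapped between the compartments, with 20.7, 19.3 and 22.8 RPKM in medial and 22.6, 19.1 and 21.6 in lateral (log2 difference 0.01, SE 0.12). The difference of these differences was -0.83 (SE 0.28, adjusted p = 0.964). Posterior medial was also above anterior medial, 32.2 against 20.9 RPKM on average, 1.54-fold and without overlap (11.9% of genes). The medial and lateral libraries of the posterior palate shared no sequencing run, and the highest value came from a library named ERK2_WT.

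Along the oral-nasal axis Axin2 overlapped in both regions. In posterior nasal, where Tcf7 was highest, Axin2 was at 36.0, 21.3 and 16.5 RPKM, against 18.7, 23.3 and 17.2 in posterior oral (log2 difference -0.26, SE 0.31, adjusted p = 0.999). This estimate had the same direction as that of Tcf7. Within runs the posterior nasal to oral ratio was 1.93 (36.0 against 18.7 RPKM) in the run of the Tgfbr2_WT libraries and 1.06 (21.3 against 20.2) in another. In the anterior palate it was at 12.5, 14.1 and 22.0 RPKM in oral and 19.7, 23.2, 22.9 and 17.4 in nasal (-0.39, SE 0.27, adjusted p = 1.00). Between libraries with the same replicate number it was lower in oral in 3 of 3, and with the number as a block the difference was -0.47 (SE 0.30, limma adjusted p = 1.00), which did not pass. The replicate numbers do not follow the sequencing runs. Within runs the anterior nasal to oral ratio of Axin2 was 1.71 (21.4 against 12.5 RPKM), 1.62 (22.9 against 14.1) and 0.79 (17.4 against 22.0). In the run of the Tgfbr2_WT libraries anterior Axin2 was thus higher in oral. Across all 25 libraries Axin2 lay between 12.5 and 41.1 RPKM, with a median of 20.7.

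The other genes of the pathway were read from lists. Of the 20 genes of Wnt signal transduction, which include beta-catenin, the destruction complex and the Lrp coreceptors, 17 to 19 were tested per comparison and 0 were called in any by limma, with 0 or 1 at an unadjusted p under 0.05. Of the 18 nuclear partners, 2 of 17 tested were called between the regions, where 3.32% of all genes were, both higher in the posterior palate, and 0 in any other comparison. These were the corepressors Tle1 (13.2 against 10.2 RPKM on average, log2 difference 0.36, SE 0.10, adjusted p = 0.0377) and Tle2 (24.0 against 15.6, log2 difference 0.64, SE 0.17, adjusted p = 0.0350), and neither was called with sequencing run as a block. The count of 2 fell to 0 without anterior oral replicate 2, anterior nasal replicate 1 or 4, posterior medial replicate 3, posterior lateral replicate 2 or 3 or posterior oral replicate 2, and to 1 without any 1 library of anterior lateral or posterior nasal, anterior oral replicate 1 or posterior oral replicate 1 or 3. The beta-catenin coactivators Bcl9, Bcl9l, Pygo1 and Pygo2 were not called in any comparison.

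Of the 17 Wnt target and feedback genes, 10 to 12 were tested. In posterior oral against nasal, where Tcf7 differed most, 1 of 12 was called, against 1.25% of all genes. At an unadjusted p under 0.05 in limma there were 6 of 12, all lower in oral. These were Dkk1, Wisp1, Wif1, Bambi, Ccnd1 and Myc. The share of all genes at that level was not counted for this comparison. The median log2 difference of the list was -0.60 against -0.01 over all genes. The called gene was Dkk1, a secreted inhibitor of Lrp coreceptors, at 3.73, 3.78 and 2.79 RPKM in oral and 14.8, 9.16 and 10.9 in nasal (log2 difference -1.71, SE 0.25, adjusted p = 0.0213). All oral values of Dkk1 were under the minimum of 5 RPKM, so it was tested only because it was high in nasal. Its call was lost with sequencing run as a block and without any 1 of the 6 libraries. In anterior lateral against medial 1 of 10 was called, against 2.51% of all genes. This was Wisp1, a secreted matrix-associated protein, which was higher in lateral. It was at 6.80, 5.67 and 6.99 RPKM against 3.70, 2.49 and 3.56 (log2 difference 0.99, SE 0.18, adjusted p = 0.0334). All medial values of Wisp1 were under the minimum of 5 RPKM, so it was tested only through the lateral libraries. The Wisp1 call was lost without any 1 of the 6 libraries. In posterior lateral against medial, where limma called 0 of 10325 genes, Wisp1 was also higher in lateral, at 16.3 against 2.26 RPKM on average (log2 difference 2.79, SE 0.35, adjusted p = 0.450). Along the oral-nasal axis Wisp1 was not called. Its log2 difference, oral minus nasal, was 1.19 (SE 0.33) in the anterior and -1.21 (SE 0.27) in the posterior palate. Between the regions 3 of 10 were called, where 3.32% of all genes were. Tnfrsf19, a receptor of the TNF family, was higher in the posterior (27.6 against 8.65 RPKM, log2 difference 1.65, SE 0.18, adjusted p = 6.39e-07), while Cd44, a hyaluronan receptor (12.2 against 24.5, log2 difference -1.16, SE 0.24, adjusted p = 0.00367), and Wif1, a secreted Wnt-binding inhibitor (7.80 against 19.9, log2 difference -1.65, SE 0.42, adjusted p = 0.0247), were lower. With sequencing run as a block 1 gene of this list was called, and without posterior medial replicate 2 there were 5.

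The genes whose pattern was most like each member were found over the 25 libraries among 10437 genes with a mean of at least 5 RPKM, by Pearson r of log2(RPKM + 0.1). For Tcf7 these were Lrrc17 (r = 0.83), Palld (0.78), Nfatc1 (0.77), Fgfr2 (0.76) and Ifitm5 (0.76). For Tcf7l1 they were Arhgef17 (0.88), Bcl9 (0.86), Ly6e (0.85), Ubn1 (0.84) and Hivep1 (0.83). Axin2 was most like Apcdd1 (0.73), itself on the list of Wnt feedback genes, then Dnm2 (0.73), Gga1 (0.71), Tada3 (0.71) and Nfyc (0.71). Tcf7l2 was most like Tekt2 (0.73), Synpo2 (0.72), Pitpnc1 (0.72), Nhsl1 (0.72) and Smarca2 (0.71), and Lef1 most like Csnk1e (0.78), Stat2 (0.77), Micall1 (0.74), Wdr46 (0.74) and Per2 (0.74). Among the members, the highest r was 0.48, between Tcf7 and Lef1, and that between Tcf7 and Axin2 was 0.28. Libraries of a compartment or run share their source, so these values are descriptions.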

How the data were processed

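RNA of compartments isolated by laser capture microdissection was amplified (NuGEN Ovation RNA-Seq V2), tagmented with Nextera and sequenced as single reads of 50 bases. The authors deposited 1 table of RPKM values for 37406 genes in 25 libraries, computed in GeneSpring from reads that aligned once, with duplicates taken out. The submitters' processing notes name TopHat and mm9, and the gene annotation is not given in the sources used here. Removal of duplicates lowers high values most. Amplification adds spread that counting error does not cover.

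Groups and replicate numbers were taken from the sample labels, and sequencing runs from column headers in the study's supplementary tables. Since the p-values rest on the spread between libraries that the labels call replicates, any shared embryos or shared preparation would make them too small. Depth was worked out from the steps between low RPKM values, as read counts were not used here. Reads at Lef1 are approximate.

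Values were tested as log2(RPKM + 0.1) in limma 3.58.1 (R 4.3.3). The expression minimum was 5 RPKM in 3 of the libraries compared for pairs of compartments, and 10 RPKM in 6 libraries between the regions. Either minimum could be met by a single group, so counts of called genes in a list include genes admitted through the group where they were high. Members below the minimum were added to each fit. Adjusted p-values are by Benjamini and Hochberg over all genes tested, with 0.05 as the threshold. The main fit between the regions had no term for compartment, so differences between compartments entered its spread. A difference of differences between regions was tested as an interaction. The test was checked on simulated data. Alternatives were other pseudocounts (1 and 0.01), other filters, median centring, quantile normalization, a mean-variance trend, all 25 libraries in 1 fit with and without sequencing run, run as a block, the replicate number as a block and leaving out each library. A fit without the 6 libraries named ERK2_WT or Tgfbr2_WT was added after seeing the data.

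Replicate numbers are shared between compartments. Deviations of libraries with the same number were correlated at over 0.1 in all 3 pairs of anterior oral and nasal (0.130 to 0.239), where the numbers meet the criterion for pairs. However, only 1 of these 3 oral libraries was most like the nasal library of its own number, and the numbers do not follow the sequencing runs. The values given are from the fit without the block unless it is named. In the other 3 comparisons at least 1 pair was below 0.1.

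The members and gene lists were chosen with earlier results of these data known. All members are named. From the pathway lists every gene with an adjusted p under 0.05 is named, up to 6 in each direction, and the 5 genes most like each member. Spp1 and Lrp6 had more than 1 row, of which the row with the higher mean was used. Tables and figures were made in Python 3.11.15 with pandas 2.3.3, scipy 1.17.1 and matplotlib 3.10.9.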

Additional observations from a re-analysis of the deposited data

How the results depend on the processing

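Of 780 alternative values for the log2 differences of the 5 genes, 721 kept their direction and their side of the threshold, 45 changed sign, 10 lost and 4 gained a call, and no called value changed sign. The cause of these changes was not tested. For anterior lateral against medial, 0 of 5 genes were called instead of 1 with no filter on low values (Tcf7 adjusted p = 0.0964), in the fit of all 25 libraries (0.695) and in that fit with sequencing run (1.00), and 0 to 1 when 1 library was left out (Tcf7 adjusted p 0.0340 to 0.0793). For posterior oral against nasal, 0 were called with no filter (adjusted p = 0.0512), with all 25 libraries and sequencing run (0.0842), with run as a block (0.0640) and without the Tgfbr2_WT libraries (0.116). Leaving out 1 library gave a Tcf7 difference of -2.46 to -2.27 and kept the call. Between the regions 1 was called, Tcf7l2, with median centring, with quantile normalization and with run as a block, and 0 to 1 when 1 library was left out.

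Signs changed only for differences that were not called. With all 25 libraries and sequencing run, the log2 difference was 0.29 for Tcf7l2 in anterior lateral minus medial, 0.21 for Tcf7 and 0.32 for Lef1 in posterior lateral minus medial, -0.045 for Tcf7l1 in posterior oral minus nasal, -0.48 for Tcf7 in posterior minus anterior and -0.045 for Axin2 in the oral-nasal interaction. With run as a block it was -0.045 for Tcf7l1 in posterior oral minus nasal, -0.045 for Axin2 in the oral-nasal interaction and -0.35 for Tcf7 between the regions. Quantile normalization gave 0.027 for Tcf7l1 in anterior oral minus nasal, 0.12 for Lef1 between the regions and -1.06 for Lef1 in the lateral-medial interaction, and median centring gave -0.0017 for Tcf7 between the regions. Without the ERK2_WT and Tgfbr2_WT libraries, Tcf7 was 0.48 in posterior lateral minus medial, Lef1 -0.031 in anterior oral minus nasal and Axin2 0.089 in posterior oral minus nasal. When 1 library was left out, the ranges that crossed 0 were -0.094 to 0.23 (Tcf7l1) and -0.044 to 0.084 (Axin2) in anterior lateral minus medial, -0.84 to 0.11 (Tcf7) in posterior lateral minus medial, -0.12 to 0.89 (Lef1), -0.34 to 0.21 (Tcf7l1) and -0.041 to 0.28 (Tcf7l2) in anterior oral minus nasal, -0.088 to 0.32 (Tcf7l1) and -0.50 to 0.057 (Axin2) in posterior oral minus nasal, -0.12 to 0.20 (Tcf7) between the regions, -0.97 to 0.71 (Lef1) in the lateral-medial interaction, and -0.071 to 0.48 (Tcf7l1) and -0.11 to 0.45 (Axin2) in the oral-nasal interaction.

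The replicate number as a block changed no call of the 5 genes. Tcf7 was -1.50 in anterior lateral minus medial (adjusted p = 0.0223), where the count over all genes went from 262 to 157, and -2.36 in posterior oral minus nasal (adjusted p = 0.0145). In anterior oral minus nasal the block gave -0.56 for Tcf7 (SE 0.59) and -0.47 for Axin2 (SE 0.30), both with an adjusted p of 1.00. Run as a block could not be fitted in either lateral against medial comparison, where the compartments share no run. Depth limits Lef1 most, with a median of 16.4 approximate reads.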
